A study of Mus musculus with 40 samples.

Results

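Gene expression in the left ventricle of 5 female mice with a knockout of Rbm20 was compared with that of 5 wildtype females, across every gene with enough reads to test. All mice were 10 weeks old, and the labels name no treatment for either genotype. The allele of the knockout, the strain and whether the mice were littermates are not given in the sources used here. The wildtype group is named wt_f and the knockout group ko_f, each followed by the number of the mouse. The female table lists 25462 genes, and the 12781 with a mean of at least 10 normalized counts over the 10 mice were tested. Each mouse gave 2 libraries, and the libraries of a mouse were averaged, so that n = 5 mice per group. Mouse ko_f_154 is represented by 1 library, because the other column matches no label.

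RBM20 is an RNA-binding protein of heart and skeletal muscle that controls the splicing of titin and of other transcripts of the sarcomere and of calcium handling. Its loss leads to longer, more compliant titin, and mutations in the human gene cause dilated cardiomyopathy. The left ventricle is made mostly of cardiomyocyte RNA, but fibroblasts, endothelial cells, mural cells and leukocytes contribute, and in such bulk tissue fewer cells of a type and less RNA per cell cannot be told apart. The description below covers all genes and then signalling, membrane, mitochondrial, metabolic, stress and secreted gene groups.

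The 19 libraries used held 6166106 to 11624594 reads in genes, of which 24.5% to 32.99% in knockout and 27.4% to 33.6% in wildtype mice were mitochondrially encoded. Of the knockout libraries, those of ko_f_150, ko_f_151 and ko_f_155 lay below every wildtype library, and those of ko_f_95 within the wildtype range. Levels are normalized counts, that is reads divided by the authors' size factor of each library, given as mean ± SD over mice. Log2 changes (knockout minus wildtype, with their SE after ±) were fitted with limma on log2(level + 1), and understate the change of genes with low levels. P-values are two-sided and adjusted by Benjamini-Hochberg over the 12781 genes, with a threshold of 0.05.

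Ventricular markers were abundant in every mouse, but 3 samples also held atrial transcripts. All 12 markers of ventricular cardiomyocytes were measured and 0 passed the threshold, with a median log2 change of -0.07. Their summed level was 612292 to 721442 in knockout and 586939 to 693663 in wildtype mice. Markers of other cells varied between mice. The 8 atrial markers found summed to 1134 to 28021 in knockout and 879 to 5235 in wildtype mice, with the highest sums in ko_f_151, ko_f_154 and wt_f_144, and 0 of the 8 passed (8 higher). The atrial light chain Myl7 was at 8051 in ko_f_151, 1223 in ko_f_154 and 1416 in wt_f_144, at 0 in ko_f_95, ko_f_155 and wt_f_142, and at 173 or less in the other females. Adipocyte markers summed to 678 to 4569.9 in knockout and 233 to 893 in wildtype mice, again highest in ko_f_151. Fibroblast markers summed to 35099 to 48680 in knockout and 27912 to 33909 in wildtype mice, and these sums did not overlap. Taken singly, 0 of the 8 fibroblast markers had groups of mice without overlap. The median log2 level of the fibroblast list, relative to the mean of the wildtype mice, overlapped. It was 0.06 to 0.57 in knockout and -0.10 to 0.37 in wildtype mice. Endothelial markers summed to 11148 to 12539.7 in knockout and 12631 to 14131 in wildtype mice, sums without overlap. No marker of these lists was at 0 in all mice, and the atrial marker Bmp10 is not analysed here.

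**Figure D1:**
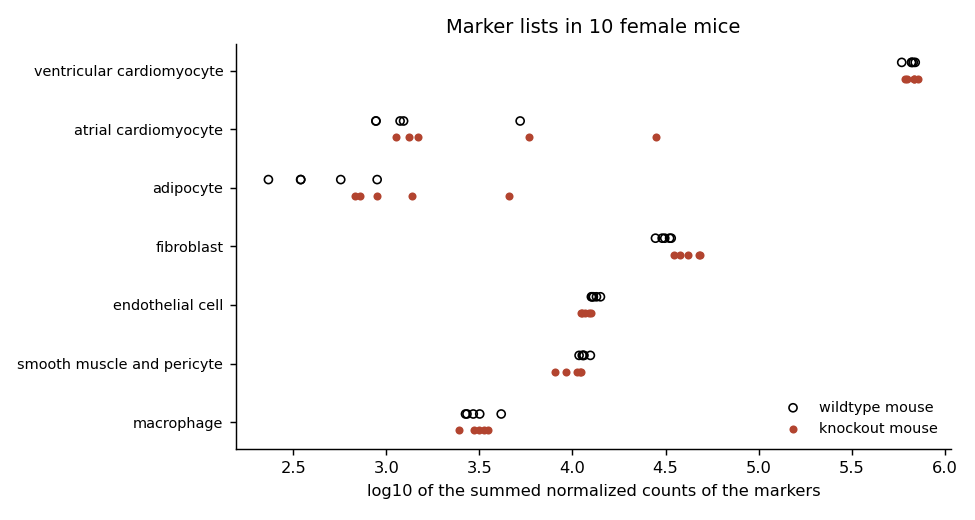
Summed normalized counts of 7 marker lists on a log10 axis, with 1 point per mouse (open, wildtype; filled, knockout). The ventricular sums overlap, the fibroblast sums are higher and the endothelial sums lower in every knockout mouse, and the atrial sum of ko_f_151 reaches 28021. The median levels of the fibroblast list, not drawn, overlap between the groups.

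Rbm20 (ENSMUSG00000043639.16, chromosome 19, 53665737 to 53855511 on GRCm39, plus strand) was measured first as a check of the labels. Taken in the order ko_f_95, ko_f_150, ko_f_151, ko_f_154 and ko_f_155 and then wt_f_140 to wt_f_144, which is used throughout, its levels were 433, 354, 392, 289 and 555 in the knockout mice and 1119, 1095, 1342, 1143 and 1001 in the wildtype mice. All knockout values lay under the lowest wildtype value, but transcript was still measured in each knockout mouse (log2 change -1.52 ± 0.14, adjusted p = 4.66e-05).

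Over all genes, 675 were higher in knockout females (5.28% of those tested) and 704 were lower (5.51%), or 10.8% in either direction. The count depended on single mice: between 461 and 805 genes were higher and between 464 and 854 lower when 1 mouse was left out, with 464 lower without wt_f_141. A gene is therefore written below as having risen or fallen only if it passed with all 10 mice and again in each of the 10 fits that left out 1 mouse. This strict rule kept 797 genes (6.24%), of which 404 rose (3.16%) and 393 fell (3.07%). The groups of mice did not overlap at all for 1168 of the 12781 genes (9.14%), 559 of them higher and 609 lower in the knockout.

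Rises were larger than falls. The median log2 change was 0.68 among the strict rises and -0.48 among the strict falls, and 0.00 over all genes tested. Of the rises, 111 were at least 2-fold and 21 at least 4-fold, against 65 and 9 of the falls. Falls were the more frequent strict calls among the most abundant genes. Of the 1072 genes with a mean of at least 1000, 75 fell and 48 rose (4.48%), and of the 3003 genes with a mean of 10 to 50, 50 fell (1.66%) and 96 rose (3.20%).

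**Figure D2:**
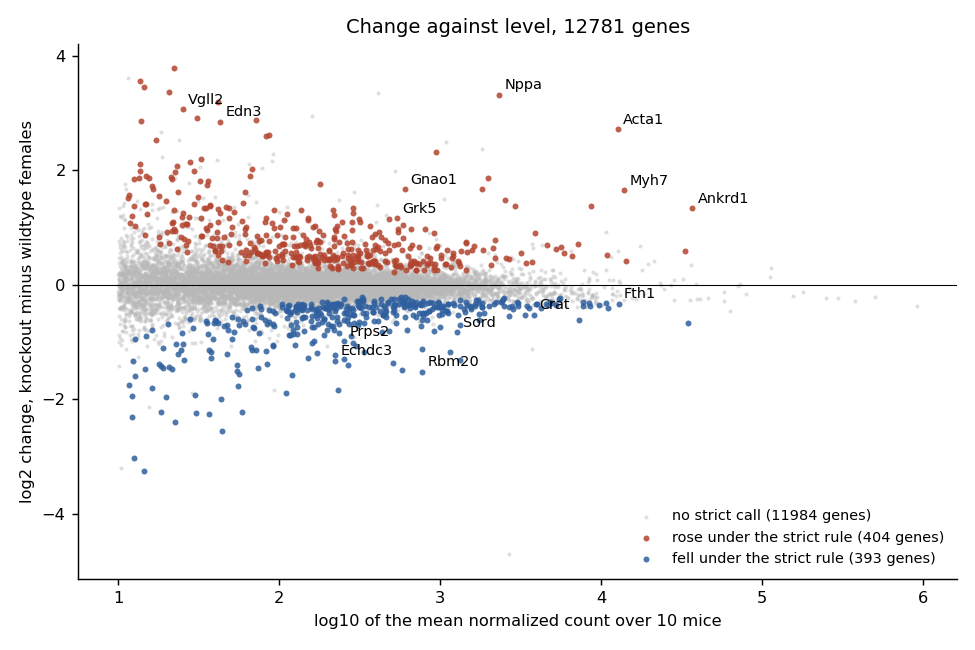
Log2 change in knockout against wildtype females (vertical) against log10 of the mean normalized count (horizontal) for 12781 genes, with the 404 strict rises in red and the 393 strict falls in blue. Rises reach further from 0 than falls, while falls are the more frequent of the strict calls at levels above 1000.

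Gnao1, the alpha subunit of the inhibitory G protein Go, had levels of 1009.8, 772, 1109, 785 and 899 in the knockout mice and 248.9, 261, 272, 353 and 296 in the wildtype mice. The lowest knockout value exceeded the highest wildtype value (log2 change 1.67 ± 0.12, adjusted p = 4.34e-06). Hspa12a, an atypical member of the HSP70 family, was at 299.9, 335, 281, 291 and 273 in the knockout mice and 147, 146, 153, 156 and 164 in the wildtype mice, and the groups did not overlap (log2 change 0.94 ± 0.07, adjusted p = 7.49e-06). Grk5, a kinase that phosphorylates G protein-coupled receptors such as the beta-adrenergic receptors, was at 865, 717, 698, 627 and 792 in the knockout mice and 287, 322, 333, 357 and 352 in the wildtype mice. Its groups were also fully apart (log2 change 1.16 ± 0.09, adjusted p = 1.07e-05). Groups without overlap were required by the rule that named these rises by their small p. Also among the 10 rises with the smallest p were Mr1, a presenter of small metabolites to T cells (334 ± 42.5 against 156 ± 18.7, log2 change 1.09 ± 0.10), and the cyclin Ccnd2 (1196 ± 154.6 against 636 ± 56.0, log2 change 0.90 ± 0.09).

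Among the falls, Sord, the sorbitol dehydrogenase of the polyol pathway, had levels of 894, 958, 892, 915 and 928 in the knockout mice and 1706, 1621, 1731, 1577 and 1533 in the wildtype mice. Its knockout mice lay in a narrow band below every wildtype mouse (log2 change -0.83 ± 0.05, adjusted p = 3.48e-06). Echdc3, a mitochondrial protein with an enoyl-CoA hydratase domain, was at 120.5, 126, 110.4, 125.4 and 153.5 in the knockout mice and 326, 336, 312, 346 and 278 in the wildtype mice (log2 change -1.33 ± 0.09, adjusted p = 4.34e-06). Ldhb-ps, a pseudogene of lactate dehydrogenase B, was at 732, 705, 693, 636 and 736 in the knockout mice and 1719, 1784, 1583, 1443 and 1389.7 in the wildtype mice (log2 change -1.17 ± 0.08, adjusted p = 3.48e-06). Both sets of values were without overlap, which the rule that named these falls and Sord by their small p required. Ldhb itself was measured at 11078 ± 379 against 12454 ± 1084 and did not pass (adjusted p = 0.184), and how reads were divided between the 2 copies is not stated. Tnfaip8, a regulator of apoptosis, fell too (145 ± 7.77 against 360.1 ± 52.5, adjusted p = 6.38e-06).

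**Figure D3:**
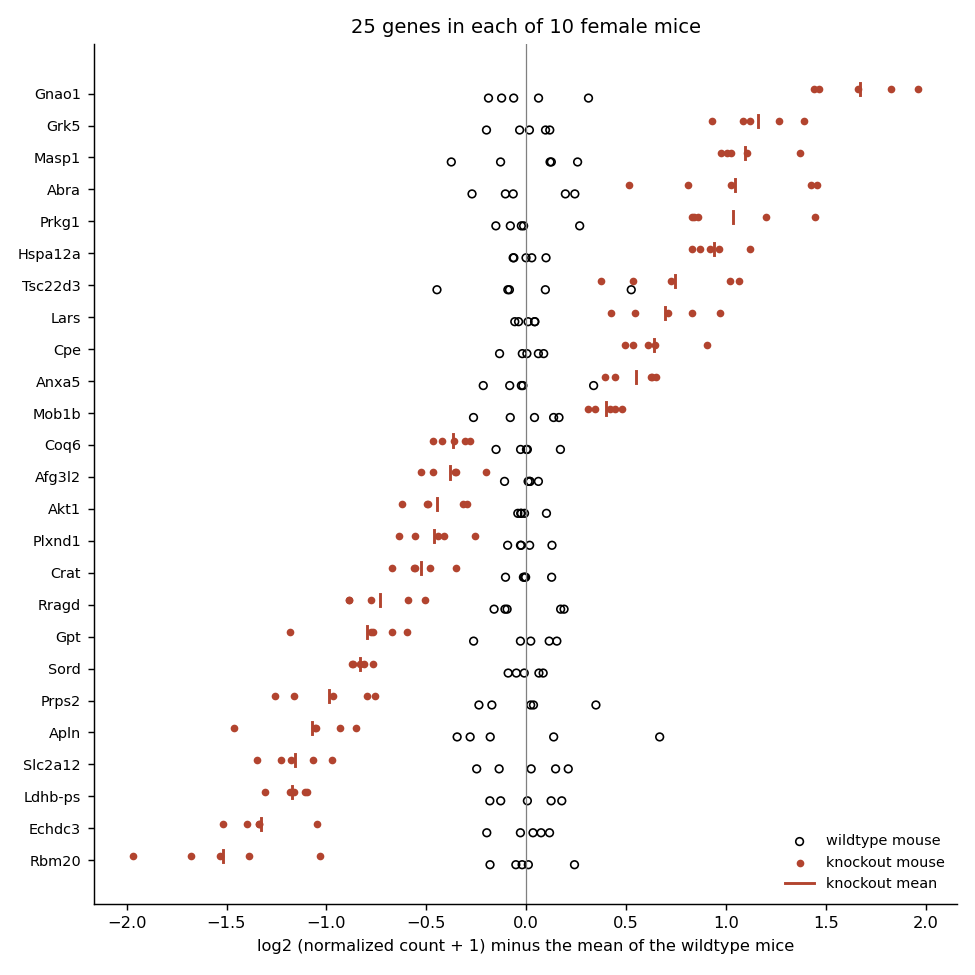
Log2 (normalized count + 1) minus the mean of the wildtype mice for 25 genes in each of 10 females (open, wildtype; filled, knockout; bar, knockout mean), ordered by change. Only for Tsc22d3 do the knockout and wildtype points overlap. The genes named by small p were required to have groups without overlap.

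Myh7, the slow beta-myosin heavy chain, was at 21076 ± 6884 against 6711 ± 2413 (log2 change 1.65 ± 0.26, adjusted p = 0.00185). Ankrd1, a titin-binding ankyrin repeat protein, showed the largest gain in normalized counts, 52555 ± 7357 against 20718 ± 2702 (log2 change 1.34 ± 0.12, adjusted p = 3.10e-05). Synpo2l, an actin-binding protein of the Z-disc, rose by 1.47 ± 0.18 on the log2 scale (3710.0 ± 945 against 1329 ± 331). Xirp2, an actin-binding Xin repeat protein of the intercalated disc, rose by 1.37 ± 0.21 (12469 ± 3772 against 4728 ± 989). Fhl1, a LIM protein that binds titin, rose by 1.38 ± 0.20 (4207 ± 1101 against 1629.7 ± 511). Adjusted p-values of these 3 lay between 3.41e-04 and 0.00138. Of the genes by gain in counts, the small heat shock protein Hspb7 (39800.1 ± 3346 against 26628 ± 2408, log2 change 0.58 ± 0.09) and the LIM protein Csrp3 (16190.4 ± 1306 against 12167 ± 828, log2 change 0.41 ± 0.08) also rose.

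The 250 bases before the start of Myh7, Ankrd1 and Acta1 are shown because they hold the M-CAT motif, CATTCC, on either strand. M-CAT is the site named for TEAD factors. The 3 genes were picked for this motif from the strict rises among the 10 largest gains in counts. Its presence in these windows was therefore fixed by the choice. They also had the 3 largest gains. The letters in capitals mark CATTCC or its reverse complement GGAATG. The sequences are RefSeq's on GRCm38.p6, read 5′ to 3′ on the gene's own strand, which is the minus strand for all 3.
Myh7 (chr14:54994627-54994876): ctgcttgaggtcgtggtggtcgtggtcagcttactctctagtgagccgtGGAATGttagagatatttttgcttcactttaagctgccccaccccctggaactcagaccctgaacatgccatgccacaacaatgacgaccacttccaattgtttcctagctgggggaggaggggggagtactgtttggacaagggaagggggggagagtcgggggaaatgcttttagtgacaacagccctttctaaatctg
Ankrd1 (chr19:36119845-36120094): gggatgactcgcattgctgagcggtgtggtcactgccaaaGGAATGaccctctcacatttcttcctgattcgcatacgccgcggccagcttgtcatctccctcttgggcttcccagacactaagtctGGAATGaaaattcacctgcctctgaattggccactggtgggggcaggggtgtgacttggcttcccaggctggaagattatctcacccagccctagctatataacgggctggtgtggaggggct
Acta1 (chr8:123894776-123895025): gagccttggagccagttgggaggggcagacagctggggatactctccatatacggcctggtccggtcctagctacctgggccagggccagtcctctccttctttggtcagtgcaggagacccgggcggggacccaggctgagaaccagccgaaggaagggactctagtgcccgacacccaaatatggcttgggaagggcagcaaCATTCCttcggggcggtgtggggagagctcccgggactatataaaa
Ankrd1 holds the motif 2 times and the other windows 1 time each. RefSeq windows, from 250 bases before to 50 after a start, were matched by symbol to 9866 of the 12781 genes. CATTCC on either strand was found in those of 19.2% of the 520 matched genes that were higher, 17.002% of the 547 that were lower and 14.6% of all that were matched, and in 14.7% of all 32851 windows. The same was counted for 7 other motifs on both strands, none of which contains another. AP-1 (TGANTCA) was found in 7.88% of the higher and 6.95% of the lower genes (all matched, 6.10%), CRE (TGACGTCA) in 2.88% and 1.83% (3.50%), and the E-box CACGTG in 12.3% and 10.1% (11.8%). AGATAA, the motif named for GATA factors, was found in 10.2% and 10.4% (7.67%), the ATF4 type TGATGNAA in 3.46% and 3.47% (2.78%), the estrogen-related receptor type TNAAGGTCA in 1.35% and 1.46% (0.85%), and the CArG box in 2.31% and 2.38% (1.62%). These shares are a description of letters, with no test.

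Other large rises had varied functions. Tgfb2, a TGF-beta ligand, was at 414 ± 109 against 160.3 ± 32.3 (log2 change 1.34 ± 0.17, adjusted p = 4.63e-04). Pamr1 (log2 change 1.63 ± 0.29) and Svep1 (1.21 ± 0.19), both secreted proteins with EGF and CUB or sushi domains, and Mmp23, a membrane-bound matrix metalloprotease (1.31 ± 0.13), rose too. The scaffold Cnksr1 rose by 1.31 ± 0.15, the kelch protein Klhl34 by 1.28 ± 0.15, the channel family member Calhm5 by 1.43 ± 0.24 and the poly(A) polymerase Tent5b by 1.24 ± 0.18 on the log2 scale. Hectd2os, a transcript antisense to Hectd2, rose by 1.31 ± 0.17, and Hectd2 itself was at 20.9 ± 5.53 against 11.6 ± 3.22 (adjusted p = 0.0477, not a strict call), and whether the counting used strand is not stated. The rule that named the genes of this paragraph by size, all but Hectd2, required groups of mice without overlap.

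The falls of similar size included membrane and signalling genes. Hcn2, a pacemaker channel, was at 87.6 ± 13.8 against 214 ± 16.4 (log2 change -1.29 ± 0.11, adjusted p = 2.71e-05), and Kcnd2, a subunit of the transient outward potassium current, at 103 ± 17.5 against 238 ± 46.1 (log2 change -1.20 ± 0.14, adjusted p = 2.11e-04). Ano10, a member of the anoctamin family, was at 280.1 ± 27.1 against 736 ± 150.6 (log2 change -1.37 ± 0.13, adjusted p = 4.91e-05). Mylk4, a kinase of the myosin light chain kinase family, fell by 1.31 ± 0.15 on the log2 scale (763 ± 139.1 against 1904 ± 402). Rbfox1, a splicing regulator, fell by 1.18 ± 0.14 (204 ± 22.7 against 472 ± 102), and Stk39, a kinase that controls chloride cotransporters, fell by 1.12 ± 0.12 (487 ± 82.9 against 1059 ± 147). The phospholipase Pla2g5 (-1.23 ± 0.17), the actin-binding Abracl (-1.13 ± 0.14), the thin filament cap Tmod4 (-1.38 ± 0.28) and the blood group protein Rhd (-1.10 ± 0.14) fell as well. Lrtm1, a leucine-rich repeat membrane protein, was at 2492 ± 942 against 4958 ± 711 (log2 change -1.12 ± 0.30, adjusted p = 0.0287) but did not pass without wt_f_140, wt_f_141, wt_f_142 or wt_f_143, so it was not a strict fall.

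The 54 gene lists, which include some of the genes named above, hold 1663 distinct tested genes, of which 57 rose and 80 fell under the strict rule (8.24%, against 6.24% of all genes). The lists were chosen with earlier results of these data known, so the higher share is not a result about the lists. The other 660 strict calls lie outside the lists. The share of members with a strict call ran from 0 in 7 lists to 25.7% among amino acid and nutrient transporters. Lists were described by counts and medians, and no test was made of a list as a whole. Shares near that of all genes were those of MAP kinases (7.41%), antioxidant genes (7.5%) and cell adhesion molecules (6.9%). Translation factors (5.66%) and DNA replication and repair genes (5.26%) were also near it. For such lists the counts below only describe members.

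**Figure D4:**
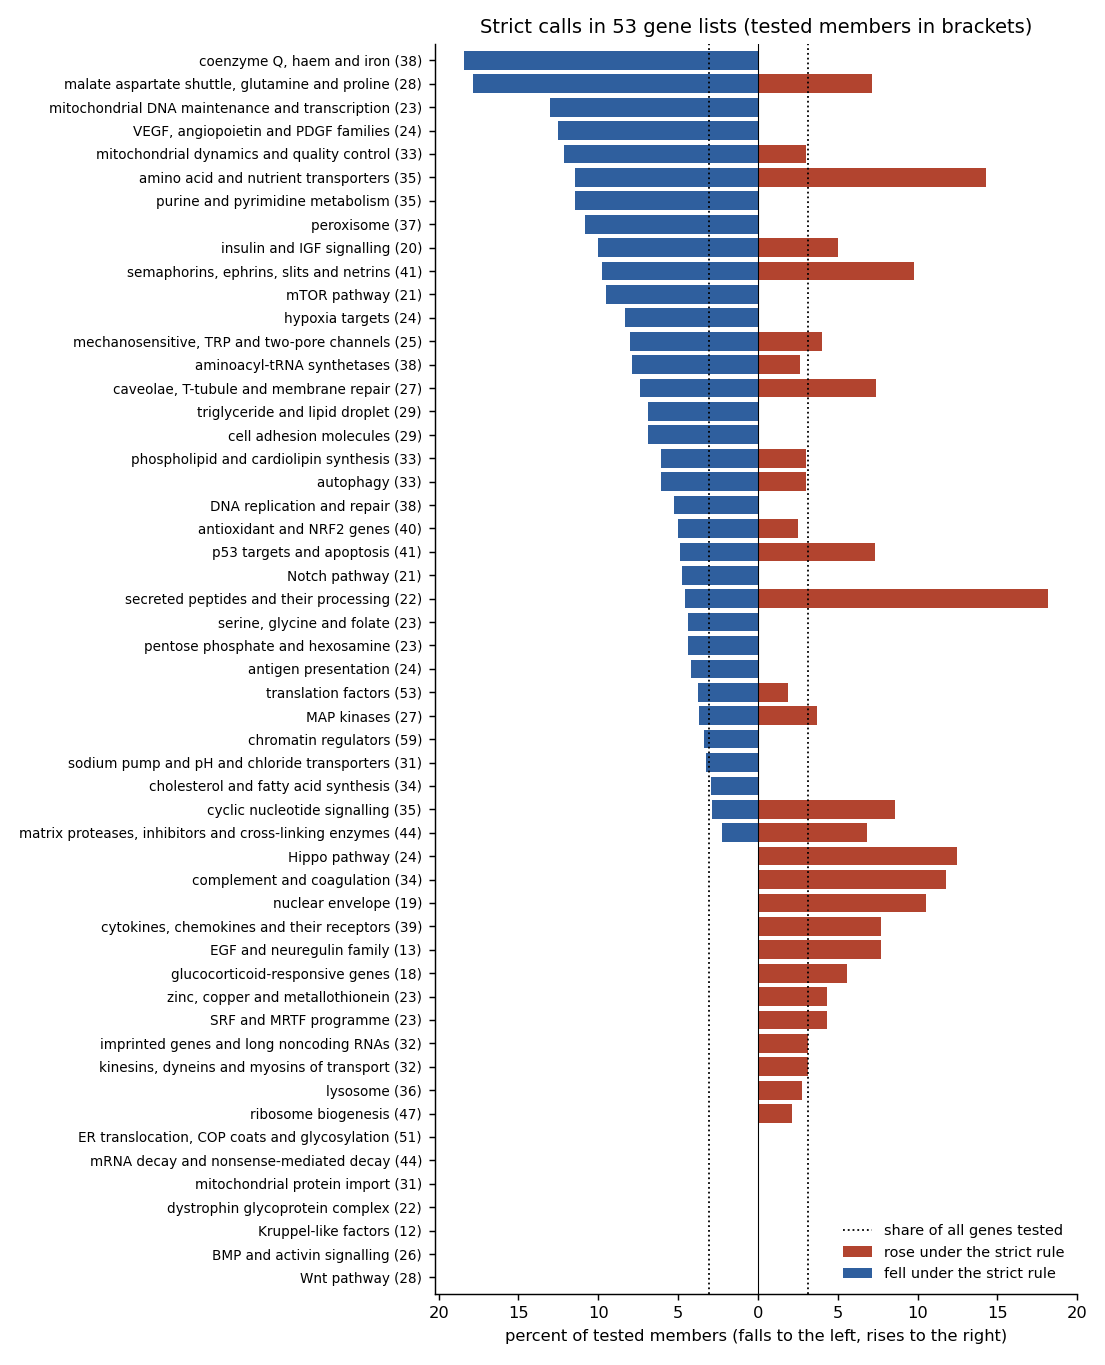
Percent of the tested members of 53 of the 54 lists that fell (to the left) or rose (to the right) under the strict rule, with the number of tested members in brackets and the shares of all genes as dotted lines (3.07% and 3.16%). Coenzyme Q, haem and iron genes reach furthest to the left and secreted peptides furthest to the right, and 7 lists have no bar.

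Of 24 tested members of the VEGF, angiopoietin and PDGF families, 3 fell and 0 rose, with a median log2 change of -0.12. Apln, the ligand apelin of the endothelial receptor Aplnr, was at 57.6, 66.4, 43.1, 62.7 and 57.4 in the knockout mice and 133, 106.3, 94.6, 99.0 and 192 in the wildtype mice. The groups did not overlap (log2 change -1.07 ± 0.18, adjusted p = 0.00248). The ligand Vegfb was at 1978 ± 72.8 against 2436 ± 138.9 (log2 change -0.30 ± 0.06), and Kdr, the main receptor for VEGF-A, at 929 ± 136 against 1305 ± 143.7 (log2 change -0.50 ± 0.10). Endothelial markers, which include Kdr, were lower in 8 of 8 cases, and Cdh5 also fell (1325 ± 111 against 1789.6 ± 186, log2 change -0.43 ± 0.08). The part of endothelial cell content in the changes of Kdr and Apln was not tested.

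In insulin and IGF signalling, 1 of 20 members rose and 2 fell. Akt1, a kinase central to growth and survival, had levels of 764, 956, 832, 943 and 835 in the knockout mice and 1261, 1153, 1156, 1142 and 1169 in the wildtype mice, with no overlap between the groups (log2 change -0.45 ± 0.07, adjusted p = 0.00155). Akt2, its relative in insulin-driven glucose uptake, fell by 0.34 ± 0.06 on the log2 scale (991 ± 48.1 against 1254 ± 54.5), and the IGF-binding protein Igfbp6 rose by 0.77 ± 0.12 (221 ± 39.1 against 128.4 ± 14.99). In the mTOR pathway 2 of 21 members fell and 0 rose. Rragd, a Rag GTPase that brings mTORC1 to the lysosome, was at 551, 626, 512, 512 and 664 in the knockout mice and 878, 885, 1078, 1066 and 846 in the wildtype mice (log2 change -0.73 ± 0.10, adjusted p = 4.82e-04), again without overlap. Eif4ebp2, a repressor of cap-dependent translation that mTORC1 inactivates, fell by 0.33 ± 0.06 (567 ± 29.3 against 716 ± 52.3).

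Of the other ligand and receptor families, the semaphorins, ephrins, slits and netrins had the most strict calls, 4 rises and 4 falls among 41. Plxnd1, the endothelial plexin that binds class 3 semaphorins, was at 948, 1056, 809, 928 and 857 in the knockout mice and 1377, 1237, 1235, 1181 and 1275 in the wildtype mice and did not overlap (log2 change -0.46 ± 0.07, adjusted p = 0.00199). Plxnb1 fell by 0.78 ± 0.16 (164 ± 47.2 against 275 ± 29.5, adjusted p = 0.00752, and 0.0542 without the 3 mice with the most atrial transcript), while the ligands Sema5a (0.49 ± 0.09) and Sema3b (0.62 ± 0.12) rose. Hbegf, a ligand of the EGF receptor family, was at 295 ± 50.03 against 149 ± 13.95 (log2 change 0.97 ± 0.11, adjusted p = 2.20e-04) and was the only strict call among 13 members. In the Notch pathway the ligand Jag2 fell by 0.43 ± 0.08 and was the only strict call among 21. No member of the Wnt pathway (28 tested) or of BMP and activin signalling (26 tested) met the strict rule. With all mice 2 and 3 members, in that order, were higher past the threshold, and without wt_f_144 4 and 6 were. The members with the smallest p there were the Wnt antagonist Sfrp1 (228 ± 29.2 against 172 ± 26.4, adjusted p = 0.0346) and the activin inhibitor Fstl3 (19.6 ± 5.42 against 7.76 ± 4.24, adjusted p = 0.0224), which lost the threshold without 7 and 4 of the mice in turn.

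Within the cell, genes of cyclic nucleotide signalling had 3 rises and 1 fall among 35. Prkg1, the cGMP-dependent kinase through which natriuretic peptides and nitric oxide act, was at 193, 192, 196, 248 and 295 in the knockout mice and 105.7, 102, 129.6, 107 and 96.6 in the wildtype mice. Its groups did not overlap (log2 change 1.03 ± 0.13, adjusted p = 2.85e-04). The adenylyl cyclase Adcy7 rose by 0.68 ± 0.11 (178 ± 7.62 against 111 ± 20.7) and the cAMP phosphodiesterase Pde7b by 0.62 ± 0.11 (337 ± 46.9 against 219 ± 27.1), whereas Pde4a fell by 0.63 ± 0.11 (322 ± 55.1 against 495 ± 54.8). Among 27 MAP kinase genes, Mapk12 (p38 gamma) rose by 0.52 ± 0.09 and Map2k6, an activating kinase of p38, fell by 0.83 ± 0.17.

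The Hippo pathway, a kinase cascade that restrains the coactivators YAP and TAZ and their TEAD partners, had 3 rises and 0 falls among 24. Mob1b, an adaptor of the LATS kinases, was at 349, 310.2, 335, 318 and 340.3 in the knockout mice and 208, 275, 257, 280.2 and 236 in the wildtype mice, with the lowest knockout value above the highest wildtype value (log2 change 0.40 ± 0.08, adjusted p = 0.0081). Amot, a scaffold that binds YAP, rose by 0.65 ± 0.15 (85.5 ± 8.98 against 54.9 ± 12.7, adjusted p = 0.0124, and 0.0699 with the first library alone). Vgll2, a TEAD cofactor of skeletal muscle, was at 42.2 ± 19.2 against 8.22 ± 11.1 (log2 change 3.07 ± 0.73, adjusted p = 0.0171, and 0.0965 with DESeq2). The median of the list was -0.02, and 15 of the 24 members were lower. Of 23 genes of the SRF and MRTF programme, which responds to actin, only Abra met the strict rule. Abra, an actin-binding protein of striated muscle, had levels of 1006, 658, 1029, 762 and 536 in the knockout mice and 348, 358, 309.9, 429 and 443 in the wildtype mice without overlap (log2 change 1.05 ± 0.17, adjusted p = 0.00188). Of 18 glucocorticoid-responsive genes, 17 were higher, with a median log2 change of 0.36, but only Tsc22d3 met the strict rule. The median log2 level of the list in each mouse, relative to the mean of the wildtype mice, overlapped between the groups, at 0.11 to 0.58 in knockout and -0.48 to 0.32 in wildtype mice, and was lowest in wt_f_144. Tsc22d3, the leucine zipper protein GILZ, was at 2155, 1379, 2223, 1539 and 1755 in the knockout mice and 1001, 996, 1135, 1529 and 779 in the wildtype mice, and ko_f_150 lay below wt_f_143 (log2 change 0.74 ± 0.17, adjusted p = 0.0129). None of the 12 Kruppel-like factors passed, and the smallest p was that of Klf13 (509 ± 32.97 against 427 ± 86.7, adjusted p = 0.156).

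The list of mechanosensitive, TRP and two-pore channels, which also holds anoctamins such as Ano10, had 1 rise and 2 falls among 25 tested genes. Besides Ano10, the background potassium channel Kcnk3 fell by 0.33 ± 0.08 (1457 ± 139.4 against 1833 ± 125.05), and the stretch-activated channel Piezo2 rose at a low level (16.95 ± 3.38 against 5.92 ± 3.89, log2 change 1.51 ± 0.32). Of 31 genes for the sodium pump and for pH and chloride transport, Car14, a membrane carbonic anhydrase, fell by 0.62 ± 0.08 (657 ± 67.8 against 1007 ± 89.4, adjusted p = 6.37e-04) and no other met the strict rule. Among 27 genes of caveolae, T-tubules and membrane repair, 2 rose and 2 fell. Anxa5, a phospholipid-binding annexin, had levels of 1495, 1277, 1501, 1322 and 1524 in the knockout mice and 917, 959.9, 836, 955 and 1227 in the wildtype mice, and the lowest knockout value only just exceeded the highest wildtype value (log2 change 0.55 ± 0.09, adjusted p = 0.00284). Cavin2, a coat protein of caveolae, fell by 0.27 ± 0.05 (1553 ± 68.3 against 1867 ± 77.9). The Popeye domain proteins, which bind cAMP, went opposite ways: Popdc2 fell by 0.38 ± 0.09 (3010.0 ± 330.3 against 3905 ± 368) and Popdc3 rose by 0.49 ± 0.11 (284 ± 32.5 against 203 ± 33.8).

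Of 29 cell adhesion molecules, the endothelial Jam2 fell by 0.38 ± 0.07 and Nectin2 by 0.40 ± 0.09 (adjusted p = 0.0681 for Nectin2 with the first library alone). None of 22 genes of the dystrophin glycoprotein complex met the strict rule, and the smallest p was that of the laminin chain Lama2 (1354 ± 126 against 1068 ± 129, adjusted p = 0.025), which did not pass without ko_f_95, ko_f_154, ko_f_155, wt_f_140 or wt_f_141. Of 19 nuclear envelope genes, Lmna, the lamin A and C gene in which mutations also cause cardiomyopathy, rose by 0.26 ± 0.06 (1043 ± 53.7 against 873 ± 61.8) and Tor1aip2 by 0.23 ± 0.05 (559 ± 24.6 against 477 ± 18.4, adjusted p = 0.0652 with the first library alone). Among 32 transport motors, the kinesin heavy chain Kif5b rose by 0.31 ± 0.07 (1296 ± 89.9 against 1043 ± 63.5), the only strict call.

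Of 33 nuclear genes of mitochondrial dynamics and quality control, 4 fell and 1 rose, and 25 were lower (median log2 change -0.12). Afg3l2, a subunit of the matrix AAA protease, was at 869, 866, 769, 802 and 963 in the knockout mice and 1122, 1115, 1122, 1156 and 1027 in the wildtype mice, without overlap (log2 change -0.38 ± 0.07, adjusted p = 0.00315). The fusion GTPase Mfn1 fell by 0.31 ± 0.06 (1547 ± 86.3 against 1922 ± 119) and the stress-activated protease Oma1 by 0.37 ± 0.07 (276 ± 30.5 against 356 ± 14.3). Of 23 genes of mitochondrial DNA maintenance and transcription, 3 fell and 0 rose, with a median of -0.18. They were Suclg1 (2694 ± 68.5 against 3319 ± 203, log2 change -0.30 ± 0.06) and Sucla2 (4004 ± 219 against 5052 ± 308, log2 change -0.33 ± 0.06), subunits of succinyl-CoA ligase, and Lrpprc, which stabilises mitochondrial mRNA (752 ± 51.6 against 938 ± 73.1, log2 change -0.32 ± 0.07). Of 31 genes of mitochondrial protein import, 25 were lower but 0 met the strict rule. The smallest p was that of the import cochaperone Grpel1 (829 ± 47.4 against 977 ± 51.6, adjusted p = 0.0229), which did not pass without ko_f_95, ko_f_151, wt_f_140 or wt_f_141.

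The share of mitochondrially encoded reads was lower in most knockout than wildtype mice, as given above. In a limma fit scaled to reads outside the mitochondrial genome, 796 of the 797 strict calls were present and all 796 passed. The part of the mitochondrial share in the mitochondrial lists was not tested further. The list of coenzyme Q, haem and iron genes had the largest share of strict falls, 7 of 38, with 0 rises and a median of -0.14. Coq6, a hydroxylase of coenzyme Q synthesis, was at 389, 362, 412, 373 and 404 in the knockout mice and 490.4, 502, 450.3, 563 and 500.5 in the wildtype mice, with the groups apart (log2 change -0.37 ± 0.07, adjusted p = 0.0044). Coq9, a lipid-binding protein of the same pathway, fell by 0.42 ± 0.08 (2436 ± 203 against 3258 ± 280.4). The metalloreductase Steap4 fell by 0.41 ± 0.08 (275 ± 19.3 against 366 ± 43.2), and Alad, the second enzyme of haem synthesis, by 0.28 ± 0.06 (701 ± 37.0 against 853 ± 51.1). Red blood cell and platelet markers were lower in 7 of 7 cases (median log2 change -0.33, 0 passed), with sums of 7832 to 20202 in knockout and 10492 to 35663 in wildtype mice, which overlap. Their part in the changes of haem and iron genes, and in the fall of Rhd, was not tested. The iron store Fth1 was among the genes that lost the most counts (11343 ± 676 against 14276 ± 816, log2 change -0.33 ± 0.07).

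**Figure D5:**
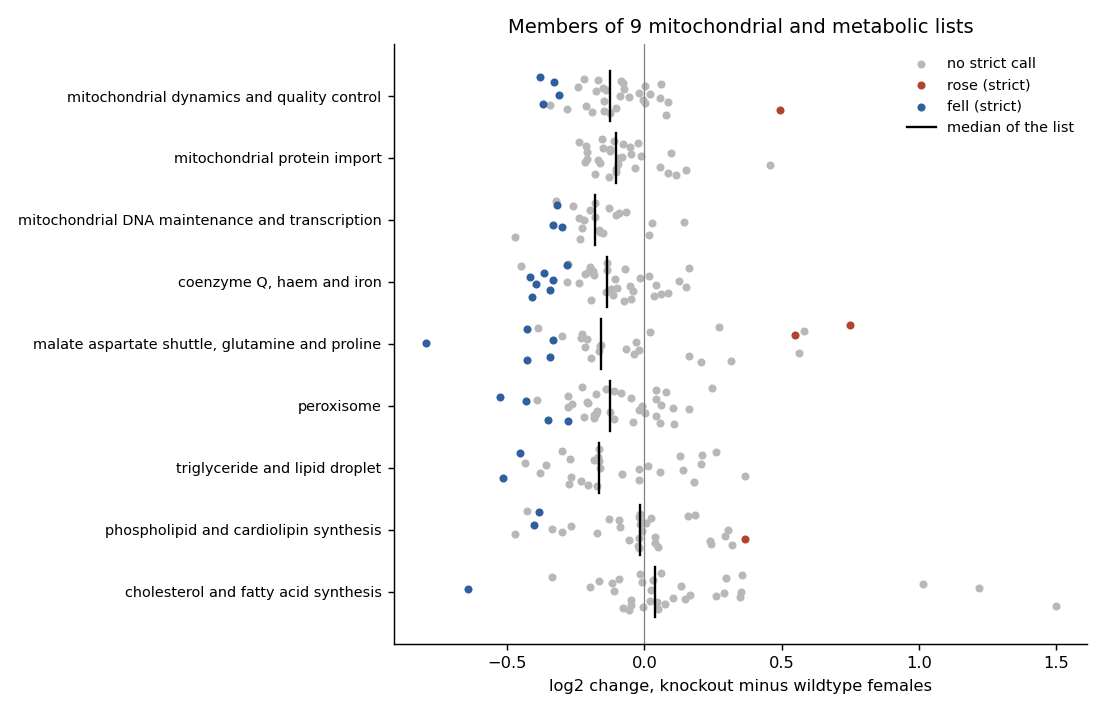
Log2 change of each tested member of 9 mitochondrial and metabolic lists (1 point per gene; blue, strict fall; red, strict rise; grey, neither), with the median of each list as a black bar. The medians of 7 lists lie between -0.18 and -0.10, those of phospholipid and cholesterol genes at -0.02 and 0.04.

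Shuttles between cytosol and mitochondria and the enzymes of glutamine and proline gave 5 falls and 2 rises among 28 (median -0.16). Gpt, the alanine aminotransferase, was at 109.7, 157, 147, 165 and 146 in the knockout mice and 245, 254, 278, 271 and 208 in the wildtype mice, without overlap (log2 change -0.80 ± 0.11, adjusted p = 8.45e-04). The oxoglutarate carrier Slc25a11 of the malate-aspartate shuttle fell by 0.34 ± 0.06 (3534 ± 185 against 4488 ± 261), and Gpd1l, a relative of glycerol 3-phosphate dehydrogenase that modulates the cardiac sodium channel, by 0.33 ± 0.07 (701 ± 52.97 against 884 ± 66.2). Abat, which breaks down GABA, rose by 0.75 ± 0.16 (296 ± 90.4 against 172 ± 27.1). Amino acid and nutrient transporters had the highest share of strict calls, 5 rises and 4 falls among 35. Slc2a12, the glucose transporter GLUT12, was at 44.2, 57.7, 53.9, 49.9 and 48.2 in the knockout mice and 95.9, 104, 116, 132 and 126 in the wildtype mice (log2 change -1.16 ± 0.11, adjusted p = 4.91e-05), with the groups fully apart. Slc16a10, which carries aromatic amino acids, fell by 0.46 ± 0.09 (144.2 ± 16.2 against 198 ± 12.8, adjusted p = 0.00469, and 0.122 with the first library alone). The amino acid carrier Slc38a4 rose by 0.80 ± 0.13 (186 ± 18.9 against 108 ± 24.9), and Slc3a2, the heavy chain of the LAT1 and xCT exchangers, by 0.38 ± 0.07 (405 ± 26.6 against 311 ± 21.2).

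Of 37 peroxisomal genes 4 fell and 0 rose, with a median of -0.12. Crat, the carnitine acetyltransferase of mitochondria and peroxisomes, had levels of 3062, 3229, 2828, 3055 and 3532 in the knockout mice and 4464, 4483, 4498, 4924 and 4195 in the wildtype mice, without overlap (log2 change -0.52 ± 0.07, adjusted p = 5.38e-04). Phyh, which starts the alpha-oxidation of phytanic acid, fell by 0.35 ± 0.07 (4615 ± 279.6 against 5895 ± 474), Ehhadh, an enzyme of peroxisomal beta-oxidation, by 0.43 ± 0.10 (65.6 ± 6.95 against 88.8 ± 9.28), and the membrane protein Pxmp2 by 0.28 ± 0.06 (282 ± 8.75 against 342 ± 23.7). Among 29 triglyceride and lipid droplet genes, Agpat3 fell by 0.45 ± 0.09 and the monoglyceride lipase Mgll by 0.52 ± 0.12, and 0 rose. Among 33 phospholipid and cardiolipin genes, Cds2 fell by 0.38 ± 0.07 and Lpcat3 by 0.40 ± 0.09, and the phosphatidylserine synthase Ptdss1 rose by 0.37 ± 0.08. Of 34 genes of cholesterol and fatty acid synthesis only Fdft1, the squalene synthase, met the strict rule (301 ± 34.9 against 474 ± 84.6, log2 change -0.64 ± 0.12). Members of these lists that fat cells also express share tissue with the adipocyte markers, whose median log2 change was 2.10 over 7 tested genes. Their 1 strict rise was Cidea (231 ± 19.6 against 185 ± 13.8), which had the smallest log2 change of the 7, 0.32. The others, at 1.99 to 2.94, had no strict call. The marker sums overlapped, at 678 in ko_f_155 and 893 in wt_f_144. The part of fat cells in the lipid lists was not tested.

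In purine and pyrimidine metabolism 4 of 35 genes fell and 0 rose. Prps2, which makes the ribose phosphate donor of nucleotide synthesis, was at 148, 191, 197, 169.6 and 138.7 in the knockout mice and 338, 295, 424, 341 and 282 in the wildtype mice, without overlap (log2 change -0.99 ± 0.12, adjusted p = 3.34e-04). Ampd3, an AMP deaminase, fell by 0.73 ± 0.12 (162 ± 21.6 against 270.1 ± 45.5), the muscle adenylosuccinate synthase Adssl1 by 0.30 ± 0.06 (1289.7 ± 80.5 against 1589 ± 96.4) and the uridine phosphorylase Upp1 by 1.18 ± 0.27 (23.5 ± 8.18 against 52.4 ± 13.96). Mtr, the methionine synthase, was the only strict call among 23 genes of serine, glycine and folate metabolism (755 ± 177 against 1239 ± 171, log2 change -0.74 ± 0.15, adjusted p = 0.00777). Sord was the only one among 23 genes of the pentose phosphate, polyol and hexosamine routes.

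Of 53 translation factors, Pabpc4 fell by 0.36 ± 0.06, the cap-binding Eif4e fell by 0.35 ± 0.08 and Eif3h rose by 0.34 ± 0.06. Of 47 genes of ribosome biogenesis, only Nop56 rose, by 0.30 ± 0.07 (adjusted p = 0.0192, and 0.0979 with the first library alone), although 36 were higher. None of 44 genes of mRNA decay met the strict rule, and the smallest p was that of Btg2 (379.7 ± 57.6 against 260.1 ± 54.1, adjusted p = 0.0238), which did not pass without ko_f_151, ko_f_154 or wt_f_141. None of 51 genes of ER translocation, COP coats and glycosylation passed with all mice, and the smallest p was that of Alg5 (123 ± 19.4 against 98.1 ± 6.13, adjusted p = 0.0643). The aminoacyl-tRNA synthetases had 1 rise and 3 falls among 38. Lars, the cytosolic leucyl-tRNA synthetase, had levels of 994, 679.7, 739, 901 and 828 in the knockout mice and 493, 509, 522, 487 and 521 in the wildtype mice, without overlap (log2 change 0.70 ± 0.09, adjusted p = 4.63e-04). The 3 falls were mitochondrial enzymes: Fars2 (380.4 ± 26.5 against 532 ± 30.9, log2 change -0.48 ± 0.07), Cars2 (165 ± 9.60 against 219 ± 12.0, log2 change -0.41 ± 0.07) and Yars2 (136 ± 12.8 against 178 ± 17.6, log2 change -0.38 ± 0.09).

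Of 33 autophagy genes, the mitophagy receptor Optn fell by 0.52 ± 0.09 (561 ± 68.8 against 803 ± 61.8), the lipid transfer protein Atg2a fell by 0.40 ± 0.09 and Atg13, of the initiating ULK complex, rose by 0.32 ± 0.08. Of 36 lysosomal genes only the collagen-degrading cathepsin Ctsk rose, by 0.54 ± 0.12 (90.4 ± 14.7 against 61.5 ± 7.25). Among 40 antioxidant genes, the mitochondrial peroxiredoxin Prdx3 fell by 0.40 ± 0.07 (2322 ± 203 against 3054 ± 212), the mitochondrial superoxide dismutase Sod2 fell by 0.31 ± 0.07 (4398 ± 273 against 5457 ± 347), and the methionine sulfoxide reductase Msra rose by 0.33 ± 0.08. Of 24 hypoxia targets, both strict calls were falls of the oxygen-sensing prolyl hydroxylases, Egln1 (2436 ± 159.6 against 3142 ± 190.4, log2 change -0.37 ± 0.06) and Egln3 (607 ± 29.4 against 868 ± 146, log2 change -0.50 ± 0.10). Among 41 p53 targets and apoptosis genes, 3 rose and 2 fell. Tnfrsf12a, the receptor Fn14, rose by 0.93 ± 0.18 (709 ± 89.1 against 387 ± 138), Casp12 by 0.68 ± 0.13 and Trp53inp1 by 0.49 ± 0.10. Of 59 chromatin regulators only the mitochondrial sirtuins Sirt3 (173 ± 13.5 against 231 ± 22.3, log2 change -0.42 ± 0.08) and Sirt5 (191 ± 19.6 against 243 ± 7.46, log2 change -0.35 ± 0.07, adjusted p = 0.00973, and 0.0519 without the 3 mice with the most atrial transcript) met the strict rule, both as falls. In DNA replication and repair the polymerase Pola1 fell by 0.70 ± 0.14 and Parp1 by 0.28 ± 0.06 among 38 genes (adjusted p = 0.071 for Parp1 without those 3 mice).

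Of 34 complement and coagulation genes 4 rose and 0 fell, with a median of 0.13. Masp1, a protease of the lectin pathway of complement, was at 404, 410.3, 434, 396 and 520.4 in the knockout mice and 154.7, 218, 184, 219 and 240.4 in the wildtype mice, with no overlap (log2 change 1.10 ± 0.12, adjusted p = 1.23e-04). The classical pathway protease C1s1 rose by 0.79 ± 0.11 (219 ± 38.6 against 125.4 ± 11.2) and the antiangiogenic serpin Serpinf1 by 0.98 ± 0.16 (877 ± 191 against 444 ± 105). Of 44 matrix proteases, inhibitors and cross-linking enzymes, 3 rose and 1 fell. Besides Mmp23, Adamtsl2, a binder of fibrillin, rose by 1.10 ± 0.22 (380.2 ± 77.1 against 184 ± 69.1) and Adamts8 by 1.98 ± 0.45 at a low level (35.1 ± 14.2 against 10.2 ± 10.6), and the membrane metalloprotease Mmp15 fell by 0.45 ± 0.07 (725 ± 80.1 against 989 ± 37.5). Fibroblast markers were higher in 8 of 8 cases with a median log2 change of 0.27, and Dcn (12881 ± 2014 against 8880.0 ± 984, log2 change 0.53 ± 0.11) and Col1a1 (1801 ± 296 against 1099 ± 264, log2 change 0.72 ± 0.15) rose. The part of fibroblast content in these lists was not tested.

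Of 39 cytokine and chemokine genes 3 rose and 0 fell (7.69%, near the 6.24% of all genes). They were the scavenging chemokine receptor Ackr3 (1484 ± 159 against 1111 ± 80.6, log2 change 0.41 ± 0.08), the interferon gamma receptor chain Ifngr1 (735 ± 82.8 against 579 ± 30.6, log2 change 0.34 ± 0.08) and Ccl21a, a chemokine of lymphatic endothelium (586 ± 112.04 against 380.3 ± 58.0, log2 change 0.61 ± 0.14, adjusted p = 0.0131, and 0.087 without the 3 mice with the most atrial transcript). Of 24 antigen presentation genes only Psme1, a proteasome activator subunit, met the strict rule, and it fell by 0.49 ± 0.07 (676 ± 26.3 against 954 ± 96.0). The ferroxidase Cp rose by 0.61 ± 0.13 (1332 ± 248 against 869 ± 137), the only strict call among 23 genes of zinc, copper and metallothionein. Snhg18 rose by 0.72 ± 0.16, the only one among 32 imprinted genes and long noncoding RNAs.

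Secreted peptides and the enzymes that process them had 4 rises and 1 fall among 22. Cpe, the carboxypeptidase that trims peptide hormones, was at 2583, 2513, 3086, 2326 and 2389 in the knockout mice and 1627, 1720.3, 1653, 1503 and 1752 in the wildtype mice, with every knockout mouse above every wildtype mouse (log2 change 0.64 ± 0.08, adjusted p = 3.15e-04). Edn3, endothelin 3, was at 75.8 ± 33.6 against 10.2 ± 6.02 (log2 change 2.85 ± 0.42, adjusted p = 0.00113). The natriuretic peptide Nppa was at 4236 ± 2315 against 402 ± 193 (log2 change 3.32 ± 0.44). Nppa is also abundant in atrium, and its rise kept its call without the 3 mice with the most atrial transcript, as did those of Cpe and Edn3. Fndc5, the precursor of irisin, fell by 0.37 ± 0.05 (2649 ± 124.5 against 3431 ± 93.8).

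The most abundant transcripts did not pass in the main limma fit. Among the 10 genes with the highest mean were mt-Co1 (805001 ± 87701 against 1037750.0 ± 115478, adjusted p = 0.306), 5 further mitochondrially encoded genes (log2 changes of -0.28 to -0.20), Myh6 (-0.12 ± 0.15), Actc1 (0.29 ± 0.15), Myl2 (0.14 ± 0.13) and Tpm1 (-0.16 ± 0.11). The call of mt-Co1 depended on the test, with an adjusted p of 0.0414 with edgeR and 0.00249 with DESeq2. It was 0.0474 with limma without the variance trend and 7.38e-07 in the authors' deposited DESeq2 table. Actc1 (adjusted p = 0.00974) and Tpm1 (0.018) also passed in the authors' table. The values of that table were scaled library by library, and whether its test took the libraries of a mouse as separate samples is not known here. Its p-values may therefore rest on another unit than the mouse. The ribosomal RNA mt-Rnr1 lost the most counts of the genes that passed (26422 ± 3509 against 42889.5 ± 10065, log2 change -0.68 ± 0.16, adjusted p = 0.0152). The citrate synthase Cs (9444 ± 848 against 12521 ± 1177, log2 change -0.41 ± 0.08), the phosphate carrier Slc25a3 (9468 ± 534 against 11838 ± 773, log2 change -0.32 ± 0.07), Bsg, a chaperone of lactate transporters (8487 ± 511 against 10846 ± 566, log2 change -0.35 ± 0.07), and the tubulin Tuba4a (5799.6 ± 1087 against 8742 ± 655, log2 change -0.61 ± 0.12) fell. Atp5g1 (-0.35 ± 0.10) and Eno3 (-0.36 ± 0.10) passed with all mice but did not without ko_f_95, ko_f_155, wt_f_140, wt_f_141 or wt_f_142 in turn, nor did Atp5g1 without ko_f_151 or Eno3 without ko_f_154. Of the largest gains in counts, Des (0.42 ± 0.11) did not pass without 6 of the mice in turn and Tcap (0.92 ± 0.23) did not pass without ko_f_154.

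Exon use was a second readout of the same mice. The authors' deposited table of exon bins, parts of a gene tested for a changed share of its reads, gives 833 bins in 372 genes at an adjusted p under 0.05. Of the 12781 genes tested here, 340 had such a bin (2.66%). The share was 7.56% among the 675 genes that were higher (51 genes), 6.11% among the 704 that were lower (43 genes) and 2.16% among the genes that did not pass (246 genes). Hence 246 of the 340 genes with an exon bin had no called change of level. Of the genes described above, Myh7 had 29 bins in the authors' deposited table, Ano10 and Lars 14 each, Synpo2l and Fhl1 5 each, and Rbm20 4.

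In males the same genes were measured in another 10 mice, 5 of each genotype, with their own controls. Of the 398 strict rises with a male value, 391 were also higher in knockout males (98.2%), and of the 389 strict falls 384 were also lower (98.7%). The share of all genes with the same direction in both sexes was not counted. In a limma fit of the males alone, 299 of the strict rises and 276 of the strict falls passed the threshold in either direction. The share of all genes that passed in that fit was not counted either, so these counts and shares have no background beside them. The median male log2 change was 0.61 for the rises and -0.45 for the falls, against 0.68 and -0.48 in females. The male knockout effect less the female one passed the threshold for 0 of 12651 genes in limma (0%), with 1031 genes at an unadjusted p under 0.05. It passed for 0 genes in edgeR and for 49 in DESeq2. Without ko_f_95 it passed for 14 genes, without ko_m_97 for 11, without wt_f_143 for 3 and without ko_f_154 for 1. These p-values do not show that the sexes responded alike. Among the named genes, Art4 (log2 change 1.91 ± 0.18 in females and 0.11 in males), Lrtm1 (-1.12 ± 0.30 and 0.08), Tcap (0.92 ± 0.23 and 0.08) and Tsc22d3 (0.74 ± 0.17 and 0.03) had male values near 0, a selection made after the values were seen.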

How the data were processed

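RNA from the left ventricles of female mice was extracted with TRI Reagent and sequenced with the BGISEQ-500 transcriptome protocol, per the labels' protocols. The submitters' processing notes name STAR 2.7.10a, DESeq2 and the build GRCm39. The counting program, its annotation and whether it used strand are not given in the sources used here. The deposited values are a signal per gene and library, which the authors made by dividing each read count by the size factor of its library. In the 19 libraries used, multiplying back gave whole reads for 100% of values (tolerance 1e-06). The authors' deposited log2 fold changes and p-values served as an alternative, and their deposited exon bin p-values as a description.

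Columns were matched by the column numbers in the descriptions, and 1 per-sample column that matches no label was not used. Both libraries of a mouse differed by a chi-square per degree of freedom of 1.07 to 1.49 (genes with at least 20 summed reads), against 2.77 to 29.4 between mice of 1 group, so the mouse was the replicate. Nothing in the labels says how the mice are related. Values were tested with limma 3.58.1 in R 4.3.3 (variance trend, two-sided, pseudocount 1, mean of at least 10), the test used for normalized values. The step was also run on counts simulated with the dispersions of these mice, and that outcome is not given here. The counts recovered were tested as alternatives with edgeR 4.0.16 (quasi-likelihood) and DESeq2 1.42.0. The difference between sexes was the interaction in 1 fit of the 4 groups.

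The 54 lists, 17 marker lists, the rule for named genes and the genes compared were chosen with earlier results of these data known. Named genes are Rbm20, ranks 11 to 25 of the rises and falls by size, the 10 smallest p in each direction (all with a mean of at least 50, groups without overlap and no predicted symbol), the 10 largest gains and losses in counts, the 10 highest means, and up to 4 strict calls per list with the smallest p, or else its smallest p as a value. Some of these genes and 1 list are not reported here. Marker genes are outside this rule, and Ldhb and Hectd2 were added after their values were seen.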

Additional observations from a re-analysis of the deposited data

Results flagged for a closer look

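Of the 25 genes given mouse by mouse, 1 group held a mouse far from the others. For Akt1, wt_f_140 had 1261 normalized counts and the other 4 wildtype mice 1142 to 1169, so that its gap to the nearest was 0.775 of the whole range of the group, above Dixon's critical value of 0.71 for 5 samples. Chance flags about 1 group in 20, and 50 groups were examined. The knockout mice, at 764 to 956, were below all 5 wildtype mice, and Akt1 kept its call without wt_f_140.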

How the results depend on the processing

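The counts of 675 higher and 704 lower genes stayed within 1.5 times under each alternative but 2, the authors' table and the fit without wt_f_141. The authors' deposited table gives 1820 higher and 1784 lower genes, and its unit may be the library rather than the mouse. Leaving out 1 mouse gave 461 to 805 higher and 464 to 854 lower genes, the lowest without wt_f_141 and the highest without wt_f_144. The other settings (TMM, edgeR, DESeq2, pseudocounts of 0.5 and 8, no filter, a mean of at least 50, the first library of each mouse, no variance trend) gave 510 to 806 higher and 573 to 877 lower genes. 2 alternatives were chosen after seeing the data. Without ko_f_151, ko_f_154 and wt_f_144, the mice with at least 500 normalized counts of the atrial light chain Myl7, 610 genes were higher and 610 lower, and with scaling to reads outside the mitochondrial genome 639 and 751. All 797 strict calls had their direction under each setting that tested them, and 712 of them passed without the 3 atrial mice and 746 with the first library alone.

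The difference between the sexes passed for 0 genes, for 49 with DESeq2 and for 2 with the first library alone, and for 0 to 14 when 1 mouse was left out. Of 191 named genes, none changed sign under any alternative. The cause of these differences was not tested. No paired analysis was possible because the groups share no mouse number. Precision is limited by 5 mice per group and, for genes near the filter of 10, by counting error.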

Other observations

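The strict calls were spread over the genome. Their share of the genes tested ran from 4.88% on chromosome 7 and chromosome 3 to 8.12% on chromosome 18, and was 7.16% on chromosome 19, which carries Rbm20.

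A search made after seeing the data, for genes with at least 100 normalized counts in 1 female and under 2% of that in another, found 20 genes. In 18 of them ko_f_151 was the highest mouse. They include the atrial genes Myl7, Myl4, Sln and Mybphl and the fat cell genes Adipoq, Cfd, Cidec and Car3. The highest mouse was wt_f_141 for 1 gene and ko_f_154 for 1.

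The former was Gm13394 (chromosome 2, 28823622 to 28824621 on GRCm39), whose knockout mice fell into separate levels. It had 3.73 and 4.81 normalized counts in ko_f_151 and ko_f_150, 1556, 1589.7 and 1806 in ko_f_154, ko_f_95 and ko_f_155, and 3812 to 4699.9 in the 5 wildtype females. In males it had 6.34 in ko_m_97, 1407 to 1597 in ko_m_106, ko_m_127 and ko_m_128, and 3656 in ko_m_130, against 2909 to 3739 in the wildtype mice. It did not pass in females (log2 change -4.72, adjusted p = 0.0781 in limma). Why its levels differ between knockout mice was not tested.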
